A study of Rattus norvegicus with 9 samples.

Results

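The interleukin-1 and interleukin-6 axis was followed here as 10 genes in cultured rat pulmonary arterial smooth muscle cells: the interleukin-1 family ligands Il1a, Il1b and Il33, the interleukin-1 receptor antagonist Il1rn, the receptor chains Il1r1, Il1rap and Il1rl1, the cytokines Il6 and Lif, and the shared receptor chain Il6st. The members were taken by name: every non-control probe of the array whose gene name or accession belonged to 1 of the 10 genes was used. This gave 17 of 41012 probes and 10 of 35069 genes, and all 10 were among the 22085 genes bright enough to be tested.

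Pulmonary arterial smooth muscle cells (PASMCs) form the contractile wall of the lung arteries. RNA was profiled on 9 1-colour Agilent rat expression arrays, 3 in each of 3 groups: hypoxia with quercetin (a plant flavonol), hypoxia, and normoxia. All cells came from male rats of the SD strain and had reached culture generation 4. Hypoxic cells, with or without quercetin, were grown at 1% oxygen and 5% carbon dioxide in a sealed chamber, and those of the normoxia group in a normoxic incubator at 37 °C. Serum was withheld for 24 h, and the cells then stood for 24 h in 10% serum with either quercetin, at a dose that these sources do not state, or 0.1% DMSO. Nothing in the labels says that the 3 samples of a group were separate cultures or animals, so each p rests on sample-to-sample spread that may be technical. The design poses 3 comparisons: hypoxia against normoxia, quercetin-treated hypoxic cells against hypoxic cells, and quercetin-treated hypoxic cells against normoxic cells.

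Interleukin-1 alpha and beta bind the receptor chain encoded by Il1r1, which then recruits the accessory chain encoded by Il1rap; the adaptor Myd88 and the kinases of the IRAK family carry the signal to NF-kB. Interleukin-33 signals through Il1rl1, also called ST2, with the same accessory chain, while Il1rn encodes a ligand that occupies the receptor without signalling. Interleukin-6, LIF and related cytokines signal through gp130, the product of Il6st, to JAK kinases and STAT3. In vascular smooth muscle, interleukin-1 is known as an inducer of interleukin-6, chemokines and adhesion molecules, and interleukin-6 has been studied as a mediator of pulmonary vascular remodelling.

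Levels are given in signal units in which 100 is the 75th percentile of the array's probes, so each change is relative to the bulk of the same array. Each change is a log2 difference of 2 group means, given ± its standard error (3 arrays a group), and every adjusted p is limma's, two-sided and Benjamini-Hochberg adjusted over the 22085 genes or, for a further probe of a gene, over the 26655 kept probes. A probe is called above background where the scanner software marked it well above its local background. These are bulk samples, in which fewer cells of a type and less RNA per cell cannot be told apart. Levels are compared between groups, never between genes, because probes differ in brightness.

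The arrays were alike within groups, with correlations over genes of 0.986 to 0.994. The share of probes above background was 53.9% to 68.7% with quercetin, 53.0% to 66.6% in hypoxia and 65.1% to 74.3% in normoxia. Hypoxia array 3 and hypoxia+quercetin array 1 stood apart with the lowest shares. The slides held the groups unevenly: slide 1 held normoxia arrays 1 and 2, slide 2 normoxia array 3 with all hypoxia arrays, and slide 3 all quercetin arrays. Slide and quercetin treatment therefore cannot be told apart, and hypoxia is also given with slide as a block, which rests on normoxia array 3. All 9 smooth muscle markers on the array were above background on every array, with a summed level of 14009.6 to 16823 units with quercetin, 39830.1 to 42013 in hypoxia and 18837 to 31866 in normoxia; no probe bore the name Acta2. Markers of other cell types were mixed. Of the 9 fibroblast markers, 7 were above background on all quercetin arrays, 7 on all hypoxia arrays and 9 on all normoxia arrays. Pecam1, Tek, Tie1 and Emcn (endothelium), Aif1 and Itgam (leukocytes), Fcer1a, Ms4a2 and Cma1 (mast cells) and Cdh1, Epcam and Krt19 (epithelium) were above background on none of the 9 arrays. From the same lists Cd14, Cd68, Cd74, Laptm5, Tyrobp and Lyz2 (leukocytes), Tpsab1 and Tpsb2 (mast cells) and Krt7, Krt18 and Cldn4 (epithelium) were above background on all 9, and Cdh5 (endothelium) and Csf1r (leukocytes) on all hypoxia and normoxia arrays.

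The sequences below show what was measured for the genes on which the results turn. These are the 60-base probes of the Il1rap, Il6 and Il6st transcripts and of transcript variant 2 of Il1rl1, copied from the scanner files in lower case, 5′ to 3′; each can be read through without a stop codon in 1 frame. Their positions are on rat build rn4 as the files give them. The Il1rap probe lies at chr11:76113640-76113699 on the minus strand, the Il1rl1 probe at chr9:39619275-39620742 on the plus strand, the Il6 probe at chr4:457279-458563 on the minus strand and the Il6st probe at chr2:43833273-43833332 on the plus strand. The Il6 and Il1rl1 probes span 1285 and 1468 genomic bases, so each crosses at least 1 intron.
Il1rap: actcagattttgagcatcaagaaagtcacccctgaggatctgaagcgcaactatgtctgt
Il1rl1 variant 2: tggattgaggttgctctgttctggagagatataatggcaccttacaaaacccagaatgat
Il6: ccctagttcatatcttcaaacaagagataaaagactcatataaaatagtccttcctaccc
Il6st: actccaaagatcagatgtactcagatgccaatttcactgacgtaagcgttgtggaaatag

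The 250 bases upstream of the gene start are shown for the 4 genes with the largest changes in hypoxia, Il1a, Il1b, Il6 and Il1rap, from RefSeq on build GRCr8 and on the strand of the gene; capitals mark every match to the motifs searched. All 4 genes lie on the minus strand, with windows at chr3:136990018-136990267 for Il1a, chr3:137036582-137036831 for Il1b, chr4:5894576-5894825 for Il6 and chr11:87704343-87704592 for the farther upstream of the 2 Il1rap starts.
Il1a: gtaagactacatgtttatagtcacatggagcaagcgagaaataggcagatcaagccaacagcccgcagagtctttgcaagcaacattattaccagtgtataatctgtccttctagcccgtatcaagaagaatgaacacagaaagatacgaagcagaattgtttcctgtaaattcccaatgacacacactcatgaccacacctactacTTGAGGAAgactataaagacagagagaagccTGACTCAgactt
Il1b: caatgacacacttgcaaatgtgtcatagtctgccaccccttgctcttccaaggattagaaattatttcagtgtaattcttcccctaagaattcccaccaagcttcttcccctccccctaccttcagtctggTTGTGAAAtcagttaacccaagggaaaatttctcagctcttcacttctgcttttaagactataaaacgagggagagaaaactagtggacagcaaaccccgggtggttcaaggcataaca
Il6: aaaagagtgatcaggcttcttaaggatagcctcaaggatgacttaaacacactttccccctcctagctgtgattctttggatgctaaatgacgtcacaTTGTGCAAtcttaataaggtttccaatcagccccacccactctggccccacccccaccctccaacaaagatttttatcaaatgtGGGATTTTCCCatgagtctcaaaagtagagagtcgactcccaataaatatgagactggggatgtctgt
Il1rap: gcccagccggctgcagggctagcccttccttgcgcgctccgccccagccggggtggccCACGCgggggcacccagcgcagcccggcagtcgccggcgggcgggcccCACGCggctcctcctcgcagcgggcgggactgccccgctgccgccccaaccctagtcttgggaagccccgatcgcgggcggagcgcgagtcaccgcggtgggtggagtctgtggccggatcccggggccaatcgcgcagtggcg

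The motifs, searched on both strands, were a form of the NF-kB site (GGGA, any 3 bases, TCC), TGANTCA (AP-1), TTNNGNAA (C/EBP), ACGTG and GCGTG (cores of the hypoxia response element) and TTCNNNGAA (STAT). Upstream windows were found for 9 of the 10 genes, 11 windows in all. The NF-kB form was in the Il6 window alone, at -68 to -59 from the gene start with an overlapping match on the other strand, against 3.38% of all 33469 windows of that length. AP-1 was in the Il1a window alone, at -12 to -6, against 6.34% of all windows. The C/EBP form was in 7 of the 11 windows, against 37.2% of all windows. Those 7 belong to 6 of the 9 genes, among them Il1a, Il1b and Il6. GCGTG, read on the minus strand as the capitals CACGC, was in both Il1rap windows and in no other gene's, against 25.9% of all windows; ACGTG and STAT were in none of the 11, against 16.6% and 7.67% of all windows. A match describes the letters of the window and is not a measured binding site.

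**Figure D1:**
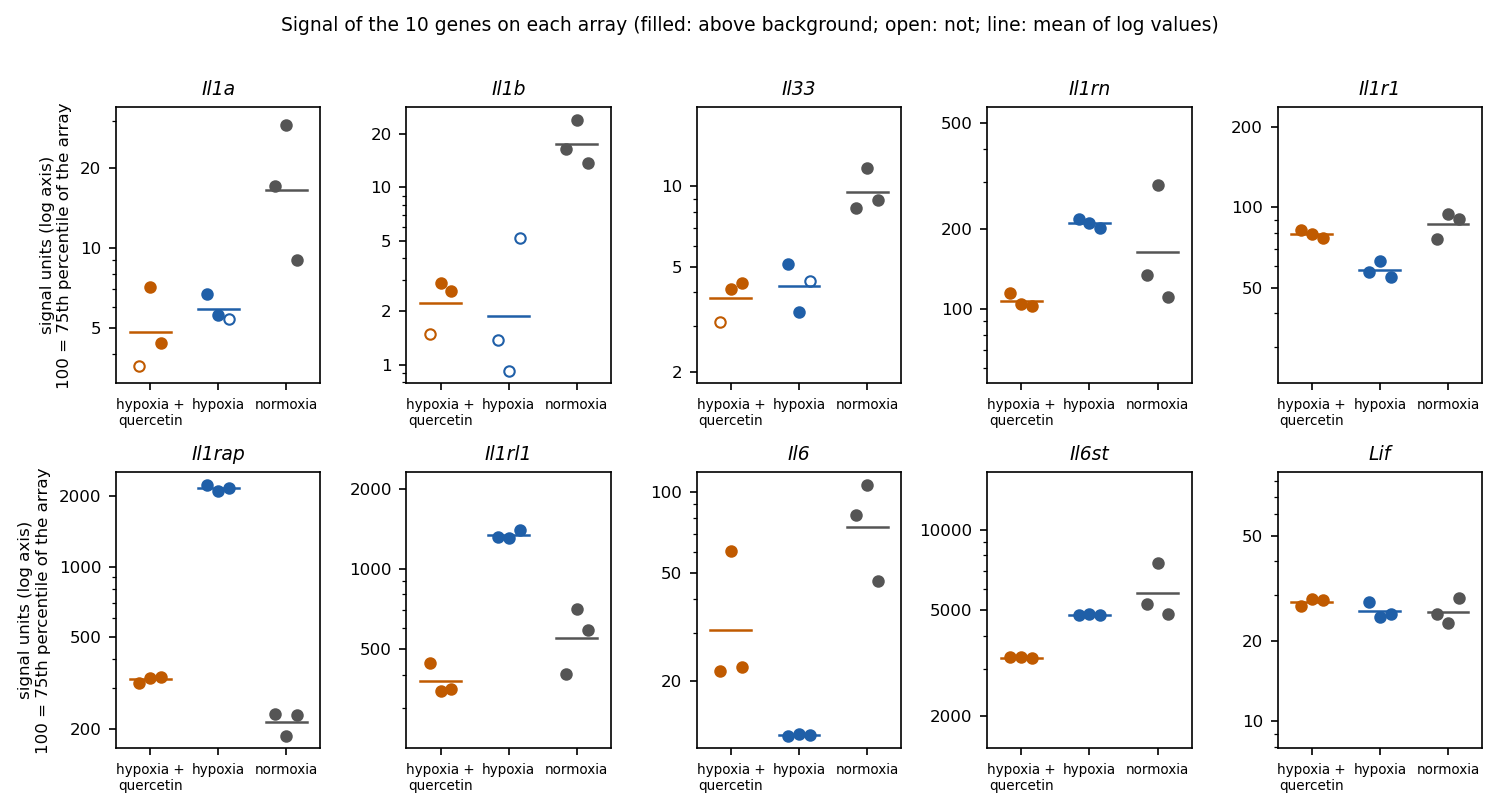
Signal of the 10 genes on each array, in units where 100 is the array's 75th percentile, on log axes; each point is 1 array, filled where the probe was above background, and each line is the mean of the group's log values. Il1rap and Il1rl1 were highest on the 3 hypoxia arrays, Il1a, Il1b, Il33 and Il6 were highest on normoxia arrays, and Lif lay between 23.5 and 29.2 units on all 9 arrays.

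In hypoxia against normoxia, 7 of the 10 genes changed: Il1rap and Il1rl1 rose, and Il1a, Il1b, Il33, Il1r1 and Il6 fell. Over all tested genes 64.2% passed the same threshold, 35.3% upward and 28.9% downward, so the share of members called is near that of the array as a whole. Il1a, Il1b and Il33 were above background on every array of normoxia alone, and were tested only through that group. In 7 of the 10 the groups did not overlap, against 71.7% of all genes. The median change of the 10 was -0.42, and the same with Il1b set at its bound, against 0.10 over all genes. With quercetin against hypoxia, 6 of the 10 changed, against 58.4% of all genes (26.9% upward and 31.5% downward): Il1r1 and Il6 rose, and Il1rap, Il1rl1, Il1rn and Il6st fell. The median of the 10 was -0.22 against -0.075 over all genes, and in 6 of the 10 the groups did not overlap, against 71.1% of all genes. With quercetin against normoxia, 6 changed, against 44.3% of all genes (23% upward and 21.3% downward): Il1rap was higher, and Il1a, Il1b, Il33, Il6 and Il6st were lower. The median of the 10 was -0.70 against 0.04 over all genes, and in 5 of the 10 the groups did not overlap, against 53.6% of all genes. The first 2 comparisons share the hypoxia arrays, so opposite signs in them are given as values side by side. Without hypoxia array 3 and hypoxia+quercetin array 1, 7, 4 and 5 members passed in the 3 comparisons: with quercetin against hypoxia the calls of Il1r1, Il1rn and Il6st were lost (adjusted p = 0.0704, 0.0818 and 0.0805) and Il1b, not above background on any hypoxia array, passed, and with quercetin against normoxia that of Il6 was lost. With slide as a block, 6 members passed in hypoxia against normoxia, Il1a being the 1 lost. The directions are relative to each array's 75th percentile. Scaled to 8 labelling spike-in probes instead, the median of all genes shifted to -0.40 in hypoxia against normoxia and to -0.37 with quercetin against normoxia. The calls then split into 2660 genes higher and 10755 lower in place of 7790 and 6389 for hypoxia, and into 1640 and 9827 in place of 5079 and 4706 for quercetin against normoxia.

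**Figure D2:**
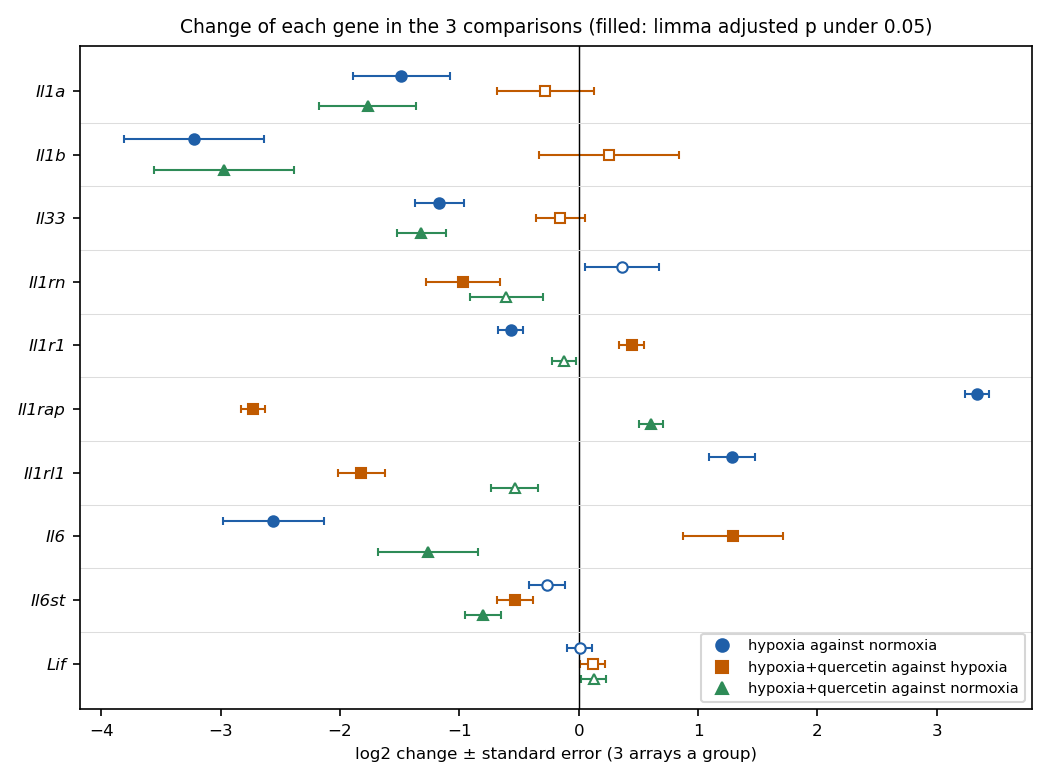
Log2 change ± standard error of each gene in the 3 comparisons (3 arrays a group); filled symbols passed limma's adjusted p under 0.05. Il1rap changed by 3.33 in hypoxia against normoxia and by -2.73 with quercetin against hypoxia, while Lif lay within 0.13 of 0 in all 3.

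The ligands Il1a, Il1b and Il33 lay near background and were highest in normoxia. Their tested probes were above background on all 3 arrays in normoxia alone. They were thus tested only through the group where they were highest, and the filter favours that direction. Il1a and Il33 were above background on 2 of 3 arrays in each hypoxic group, so the sizes of their changes are uncertain. Il1b, the secreted form made as a precursor and cut by caspase-1, had 1.5, 2.89 and 2.59 units on the quercetin arrays, 1.38, 0.924 and 5.16 on the hypoxia arrays and 16.4, 24.1 and 13.7 on the normoxia arrays. Every normoxia array lay above every array of both hypoxic groups, and the probe was above background on 2 of 3 quercetin arrays, on none of the hypoxia arrays and on all 3 normoxia arrays. Il1b was therefore at least 4.77-fold lower in hypoxia than in normoxia, where the dim side is set to the lowest signal above background on each array (adjusted p = 0.00161). With quercetin it was lower than in normoxia, at -2.97 ± 0.59 on the log2 scale (adjusted p = 0.00404). Quercetin array 1 was not above background, so the size of this difference is uncertain and is not given as a fold. No fold is given for quercetin against hypoxia, because the hypoxia signal was not above background on any array and the quercetin signal does not exceed the bound; the 2 groups overlapped.

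A further Il1b probe, read from 10 spots an array, had 1.62, 2.64 and 2.38 units with quercetin, 0.972, 1.09 and 1.69 in hypoxia and 17.1, 26.2 and 16 in normoxia. It gave a fall of at least 5.25-fold in hypoxia (adjusted p = 1.12e-05). It too was above background on 2 quercetin arrays and on no hypoxia array, and hypoxia array 3 lay above quercetin array 1.

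Il1a, which encodes the interleukin-1 form that is active without cleavage and can act from the cell surface or on release from damaged cells, had 3.60, 7.12 and 4.40 units with quercetin, 6.71, 5.58 and 5.38 in hypoxia and 17.0, 29.0 and 8.99 in normoxia. The normoxia arrays all lay above both hypoxic groups but were spread over a wide range. Il1a fell by 1.49 ± 0.41 on the log2 scale in hypoxia, 2.80-fold (adjusted p = 0.012). It was also lower with quercetin than in normoxia, at -1.77 ± 0.41 (adjusted p = 0.00823), and did not pass with quercetin against hypoxia (-0.28 ± 0.41, adjusted p = 0.579). With slide as a block the hypoxia difference shrank to -0.62 (adjusted p = 0.257), since normoxia array 3, the one that shares a slide with the hypoxia arrays, had the lowest normoxia level.

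Il33, an alarmin stored in the nucleus, had 3.09, 4.12 and 4.34 units with quercetin, 5.10, 3.37 and 4.43 in hypoxia and 8.31, 11.7 and 8.87 in normoxia, and again every normoxia array was the brighter. It fell by 1.17 ± 0.20 in hypoxia (adjusted p = 0.00131) and was lower with quercetin than in normoxia, at -1.32 ± 0.20 (adjusted p = 0.00121). Quercetin against hypoxia gave -0.15 ± 0.20 (adjusted p = 0.544). The other Il33 probe was above background on no quercetin or hypoxia array and on 2 normoxia arrays, so it was not tested. The calls for Il1a, Il1b and Il33 in hypoxia against normoxia were all lost under normexp background correction, with changes of -0.53, -0.86 and -0.36 (adjusted p = 0.421, 0.175 and 0.619), and so were their calls with quercetin against normoxia.

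Markers of other cells moved beside these ligands. The 11 leukocyte markers on the array had a summed level of 363 to 376 units with quercetin, 471 to 507 in hypoxia and 506 to 608 in normoxia, with Aif1 and Itgam above background nowhere. The genes in the sum moved differently. Cd14 averaged 119 ± 14.3 units with quercetin, 183 ± 13.6 in hypoxia and 359.7 ± 87.9 in normoxia. Cd74 averaged 35.9 ± 5.18, 105 ± 6.22 and 83.2 ± 8.34 units in the same order, and Cd68 89.4 ± 8.21, 31.5 ± 1.86 and 38.4 ± 6.00. Of the 9 leukocyte markers tested, 5 rose and 1 fell in hypoxia against normoxia (median 0.34). Lyz2 rose most of these, by 4.10 ± 0.37 (adjusted p = 3.35e-05). The 9 fibroblast markers summed to 44123 to 53957, 64782 to 74075 and 46372 to 51678 units, and 4 of them fell and 3 rose in hypoxia against normoxia. The part of these cells in the result was not tested.

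Il1rn, the receptor antagonist, was the 1 ligand among the members that fell with quercetin against hypoxia. It had 115, 104 and 103 units with quercetin, 217, 211 and 202 in hypoxia and 134, 293 and 111 in normoxia. All quercetin arrays lay below all hypoxia arrays, while the normoxia arrays lay on both sides, with normoxia array 2 far above the others. Quercetin against hypoxia gave -0.97 ± 0.31, a 1.96-fold fall (adjusted p = 0.0254); hypoxia against normoxia gave 0.36 ± 0.31 (adjusted p = 0.329) and quercetin against normoxia -0.61 ± 0.31 (adjusted p = 0.146). Without normoxia array 2, hypoxia was higher than normoxia by 0.78 (adjusted p = 0.000658). The fall with quercetin missed the threshold, at adjusted p = 0.051 to 0.0675, when any 1 hypoxia array or quercetin array 2 or 3 was left out, with estimates of -0.997 to -0.94. The dimmer Il1rn probe gave -0.83 ± 0.44 for quercetin against hypoxia (adjusted p = 0.137), again without overlap between the groups. With no filter on dim probes, or with both probes averaged, the fall of Il1rn also missed the threshold (adjusted p = 0.06 and 0.0672).

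Among the receptor chains of the axis, Il1rap showed the largest change. Il1rap, the accessory chain without which neither the interleukin-1 nor the interleukin-33 receptor signals, had 316, 333 and 337 units with quercetin, 2240.1, 2118 and 2176 in hypoxia and 232, 188 and 231 in normoxia. The 3 groups did not overlap, and the hypoxia arrays stood far above both others. Il1rap rose 10.1-fold in hypoxia (3.33 ± 0.10, adjusted p = 1.31e-06) and fell 6.62-fold with quercetin against hypoxia (-2.73 ± 0.10, adjusted p = 1.74e-06). The level with quercetin stayed 1.52-fold above normoxia (0.61 ± 0.10, adjusted p = 0.00178), a difference that was 0.20 (adjusted p = 0.173) under spike-in scaling. Blocking on slide, the rise in hypoxia was 3.23 (adjusted p = 9.29e-05). The gene is measured by 1 probe, annotated to transcript variant 1. The changes are those of this probe, and transcript variants or forms of the protein were not told apart. The 8 epithelial markers on the array summed to 751 to 914 units with quercetin, 3957 to 4699 in hypoxia and 379.6 to 565 in normoxia, the same order as Il1rap. Of the 4 tested, 3 rose in hypoxia, among them Krt7 by 3.12 ± 0.17 (adjusted p = 4.33e-06), while Cdh1, Epcam and Krt19 were above background on no array; their part in the result was not tested.

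Il1rl1, the interleukin-33 receptor ST2, was also highest in hypoxia. Its brightest probe, annotated to transcript variant 1, had 442, 348 and 352 units with quercetin, 1316, 1307 and 1395 in hypoxia and 402, 704 and 586 in normoxia. Every hypoxia array lay above all others, whereas quercetin and normoxia overlapped. It rose 2.44-fold in hypoxia (1.28 ± 0.20, adjusted p = 0.000625) and fell 3.54-fold with quercetin against hypoxia (-1.82 ± 0.20, adjusted p = 0.000112). Quercetin against normoxia gave -0.54 ± 0.20 (adjusted p = 0.0541), which passed under median scaling (-0.60, adjusted p = 0.0307). The gene is known to give a soluble form, which binds interleukin-33 as a decoy, and a membrane-bound form. No source used here says which of these forms either variant encodes, so the changes are those of a probe. On rn4 the variant 1 probe lies at chr9:39617225-39617284, upstream of the variant 2 probe. Mast cells are known to carry the receptor, and the 8 mast cell markers summed to 242 to 245 units with quercetin, 279 to 299.7 in hypoxia and 191 to 216 in normoxia, with Fcer1a, Ms4a2 and Cma1 above background on no array. All 3 mast cell markers that could be tested rose in hypoxia against normoxia (median 0.88): Tpsab1 by 0.52 ± 0.073, Tpsb2 by 0.88 ± 0.33 and Kit by 0.88 ± 0.28 (adjusted p = 0.000381, 0.0416 and 0.0244). Their part in the level of Il1rl1 was not tested.

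The probe of Il1rl1 transcript variant 2, shown above, had 10.4, 7.73 and 9.65 units with quercetin, 15.9, 15.5 and 17.7 in hypoxia and 6.06, 8.96 and 9.86 in normoxia. It rose by 1.01 ± 0.19 in hypoxia (adjusted p = 0.00198) and fell by 0.828 ± 0.19 with quercetin against hypoxia (adjusted p = 0.00592). The 2 probes were set against each other within each array. The variant 1 probe fell more with quercetin against hypoxia, with a difference of -0.99 ± 0.11 (adjusted p = 0.000474), and was lower relative to variant 2 with quercetin against normoxia, at -0.72 ± 0.11 (adjusted p = 0.00647). In hypoxia against normoxia the difference was 0.28 ± 0.11 (adjusted p = 0.111). Over 4541 such pairs on the array, 28.1%, 13.1% and 30.5% passed in these 3 comparisons, and the adjusted p was taken over all of them.

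Il1r1, the signalling receptor for both interleukin-1 ligands, moved the other way and less. It had 81.9, 79.8 and 76.9 units with quercetin, 57.3, 63.1 and 54.9 in hypoxia and 76.2, 94.6 and 90.1 in normoxia. The hypoxia arrays were the lowest, and quercetin and normoxia overlapped. Il1r1 fell 1.48-fold in hypoxia (-0.57 ± 0.10, adjusted p = 0.00169) and rose 1.36-fold with quercetin against hypoxia (0.45 ± 0.10, adjusted p = 0.00648). Quercetin against normoxia gave -0.12 ± 0.10 (adjusted p = 0.376). The rise with quercetin missed the threshold under normexp background correction (0.38, adjusted p = 0.0507). The second Il1r1 probe gave -0.29 ± 0.10 in hypoxia (adjusted p = 0.0297) and 0.34 ± 0.10 with quercetin against hypoxia (adjusted p = 0.0185).

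Of the 14 further ligands and receptors of the interleukin-1 family on the list, 11 were on the array and 3 were bright enough to test. Il18bp, which binds and neutralises interleukin-18, averaged 18.2 ± 3.56 units with quercetin, 40.4 ± 1.84 in hypoxia and 21.6 ± 2.02 in normoxia (SD, n = 3 each). It rose by 0.90 ± 0.14 in hypoxia (adjusted p = 0.00074) and fell with quercetin against hypoxia, at -1.17 ± 0.14 (adjusted p = 0.000217). Sigirr, a receptor of the family that dampens signalling, rose by 0.81 ± 0.20 in hypoxia and fell with quercetin against hypoxia, at -0.88 ± 0.20 (adjusted p = 0.00808 and 0.00619). Il1rl2, the interleukin-36 receptor, fell in hypoxia, at -1.69 ± 0.48 (adjusted p = 0.0148), a call lost without normoxia array 2. Il1r2, the decoy receptor for interleukin-1, was above background on 1 quercetin, 1 hypoxia and 2 normoxia arrays and Il18 on 1 normoxia array alone, so neither was tested.

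Genes that process interleukin-1 fell with quercetin against hypoxia in every case that could be tested. Of 13 genes of inflammasomes and of proteases listed for interleukin-1 maturation, 8 were tested: with quercetin against hypoxia none rose and 8 fell, where 31.5% of all genes fell. The median was -1.27 against -0.075 over all genes. Against normoxia none was higher and 5 were lower, with a median of -0.52, where 21.3% of all genes were lower. In hypoxia 6 rose and 1, Casp1, fell (a call lost without normoxia array 1 or 2 or any 1 hypoxia array), with a median of 0.56, where 35.3% of all genes rose and 28.9% fell. Under spike-in scaling 1 rose in hypoxia and 1 fell, while all 8 still fell with quercetin against hypoxia. Nlrp3, on the same list but near background and not tested, lay higher with quercetin than in hypoxia. It had 4.91, 3.89 and 4.74 units with quercetin, 1.15, 1.03 and 1.74 in hypoxia and 1.85, 4.09 and 1.36 in normoxia. Its probe was above background on 2 quercetin arrays, no hypoxia array and 2 normoxia arrays.

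Casp1, the protease that cuts pro-interleukin-1 beta, averaged 7.61 ± 1.18 units with quercetin, 19.1 ± 2.42 in hypoxia and 37.1 ± 16 in normoxia. It fell by 1.33 ± 0.30 with quercetin against hypoxia (adjusted p = 0.00551), and its hypoxia and normoxia arrays overlapped. Gsdmd, the pore-forming protein through which mature interleukin-1 beta leaves cells, averaged 449 ± 58.7 units with quercetin against 2619 ± 21.2 in hypoxia and 1984 ± 106 in normoxia, a change of -2.55 ± 0.11 with quercetin against hypoxia (adjusted p = 2.46e-06). Mmp9, a gelatinase that can also cut the precursor, changed by -3.48 ± 0.29 (adjusted p = 3e-05), and Casp4, the non-canonical inflammasome caspase, by -1.32 ± 0.093 (adjusted p = 1.51e-05). Casp1 and Mmp9 were each above background on 2 of 3 quercetin arrays, so the sizes of their changes are uncertain.

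Downstream of the receptor the genes moved both ways. Of 32 genes of interleukin-1 receptor signalling, 28 were tested: 7 rose and 8 fell in hypoxia against normoxia, 5 rose and 11 fell with quercetin against hypoxia, and 2 were higher and 11 lower with quercetin against normoxia. The medians were -0.0086, -0.22 and -0.25; the second is -0.16 with Irak3 set at its bound. The genes called, 15 of 28 in hypoxia and 16 of 28 with quercetin against hypoxia, compare with 64.2% and 58.4% of all genes. The 5 that rose with quercetin against hypoxia became 3 without hypoxia array 1 or quercetin array 1 or 3, and the 2 higher than in normoxia became 4 without normoxia array 3. Myd88, the adaptor, was -0.043 ± 0.093 in hypoxia (adjusted p = 0.701) and fell with quercetin, at -0.45 ± 0.093 (adjusted p = 0.00358). Nfkbia, the inhibitor IkB-alpha and itself an NF-kB target, rose in hypoxia by 0.86 ± 0.28 (adjusted p = 0.0257) and fell with quercetin against hypoxia, at -1.26 ± 0.28 (adjusted p = 0.00514).

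The NF-kB subunit genes did not move as 1 group. Nfkb1 averaged 312 ± 3.57 units with quercetin, 460.0 ± 16.2 in hypoxia and 761 ± 19.3 in normoxia, lower at -0.73 ± 0.073 in hypoxia and at -1.28 ± 0.073 with quercetin against normoxia (adjusted p = 6.19e-05 and 1.3e-05). Nfkb2 rose in hypoxia by 0.72 ± 0.11 (adjusted p = 0.000721) and changed by -1.32 ± 0.11 with quercetin against hypoxia (adjusted p = 3.51e-05). Nfkbiz, a nuclear cofactor needed for Il6 and other secondary NF-kB targets, averaged 167 ± 13.7 units with quercetin, 164 ± 6.14 in hypoxia and 465 ± 52.9 in normoxia. It fell in hypoxia, at -1.50 ± 0.11 (adjusted p = 1.36e-05), and was 0.022 ± 0.11 with quercetin against hypoxia (adjusted p = 0.875).

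**Figure D3:**
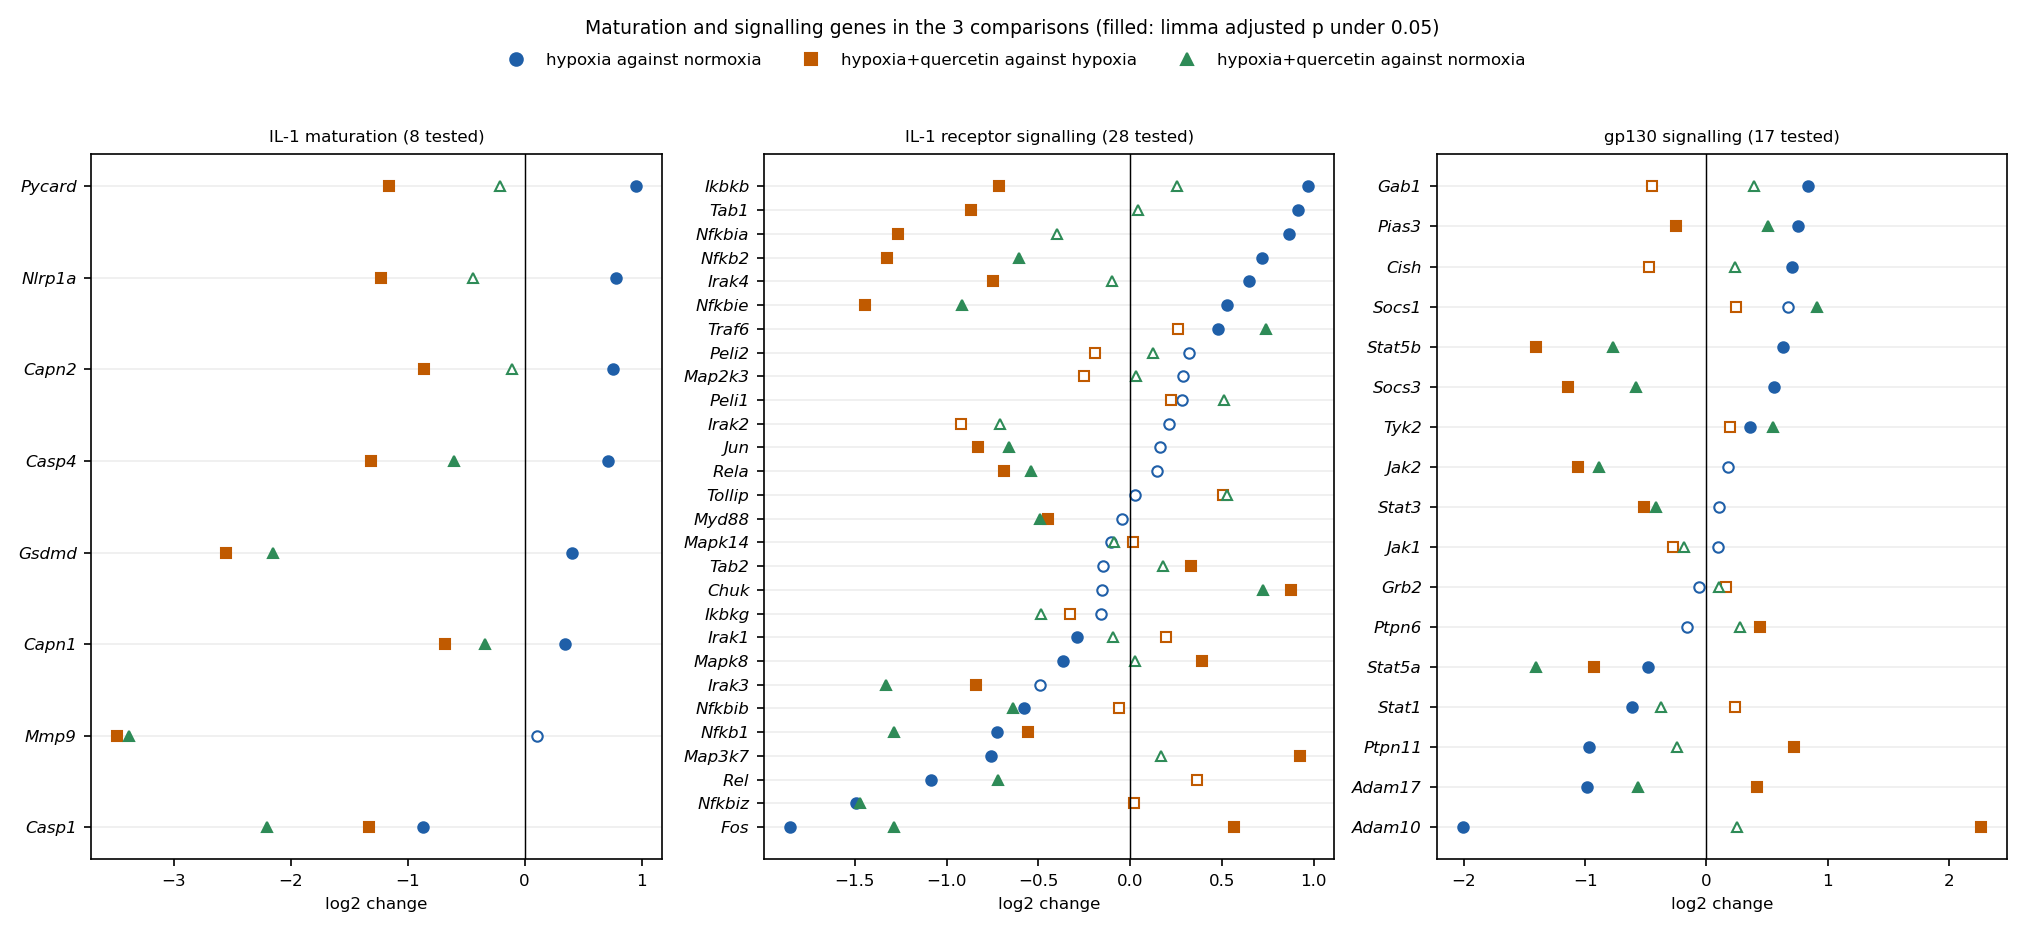
Log2 change of every tested gene of the interleukin-1 maturation, interleukin-1 receptor signalling and gp130 signalling lists in the 3 comparisons, sorted by the change in hypoxia; filled symbols passed limma's adjusted p under 0.05. All 8 maturation genes lie below 0 with quercetin against hypoxia, while the signalling lists hold genes on both sides of 0.

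Most genes known to respond to interleukin-1 fell in hypoxia against normoxia, and most also fell with quercetin against hypoxia. Of the 22 listed, all tested, 2 rose and 15 fell in hypoxia against normoxia, where 35.3% of all genes rose and 28.9% fell. The median was -1.63 against 0.10 over all genes. With quercetin against hypoxia 1 rose and 13 fell (median -1.12 against -0.075), where 26.9% of all genes rose and 31.5% fell. With quercetin against normoxia none was higher and 19 were lower (median -2.70 against 0.04), where 23% of all genes were higher and 21.3% lower. Without hypoxia array 3 and quercetin array 1 the counts were 2 and 15, 0 and 9, and 0 and 19; with slide as a block, 2 rose and 11 fell in hypoxia. The list also holds genes that other NF-kB stimuli induce.

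Cxcl3, a neutrophil-attracting chemokine, averaged 18.2 ± 11.4 units with quercetin, 82.6 ± 0.318 in hypoxia and 2639.6 ± 1403 in normoxia, with changes of -4.85 ± 0.47 in hypoxia and -2.36 ± 0.47 with quercetin against hypoxia (adjusted p = 5.38e-05 and 0.00305). Ccl2, the monocyte chemoattractant, fell in hypoxia, at -2.09 ± 0.29 (adjusted p = 0.000349), and was -0.53 ± 0.29 with quercetin against hypoxia (adjusted p = 0.146). Vcam1, an adhesion molecule for leukocytes, averaged 5.95 ± 0.659 units with quercetin against 76.1 ± 5.13 in hypoxia and 189 ± 69.9 in normoxia, a change of -3.68 ± 0.22 with quercetin against hypoxia (adjusted p = 8.84e-06). Its probe was above background on 2 of 3 quercetin arrays, so the size of this change is uncertain. The list also held genes that went the other way: Ptges, the prostaglandin E synthase, and Icam1, another adhesion molecule, were the 2 that rose in hypoxia, by 1.58 ± 0.26 and 0.50 ± 0.12 (adjusted p = 0.000975 and 0.00671), and both fell with quercetin against hypoxia. Tnfaip6, a secreted protein that restrains inflammation, was the 1 that rose with quercetin against hypoxia, by 0.66 ± 0.15 (adjusted p = 0.00472); in hypoxia against normoxia it fell, at -2.35 ± 0.15 (adjusted p = 6.72e-06).

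**Figure D4:**
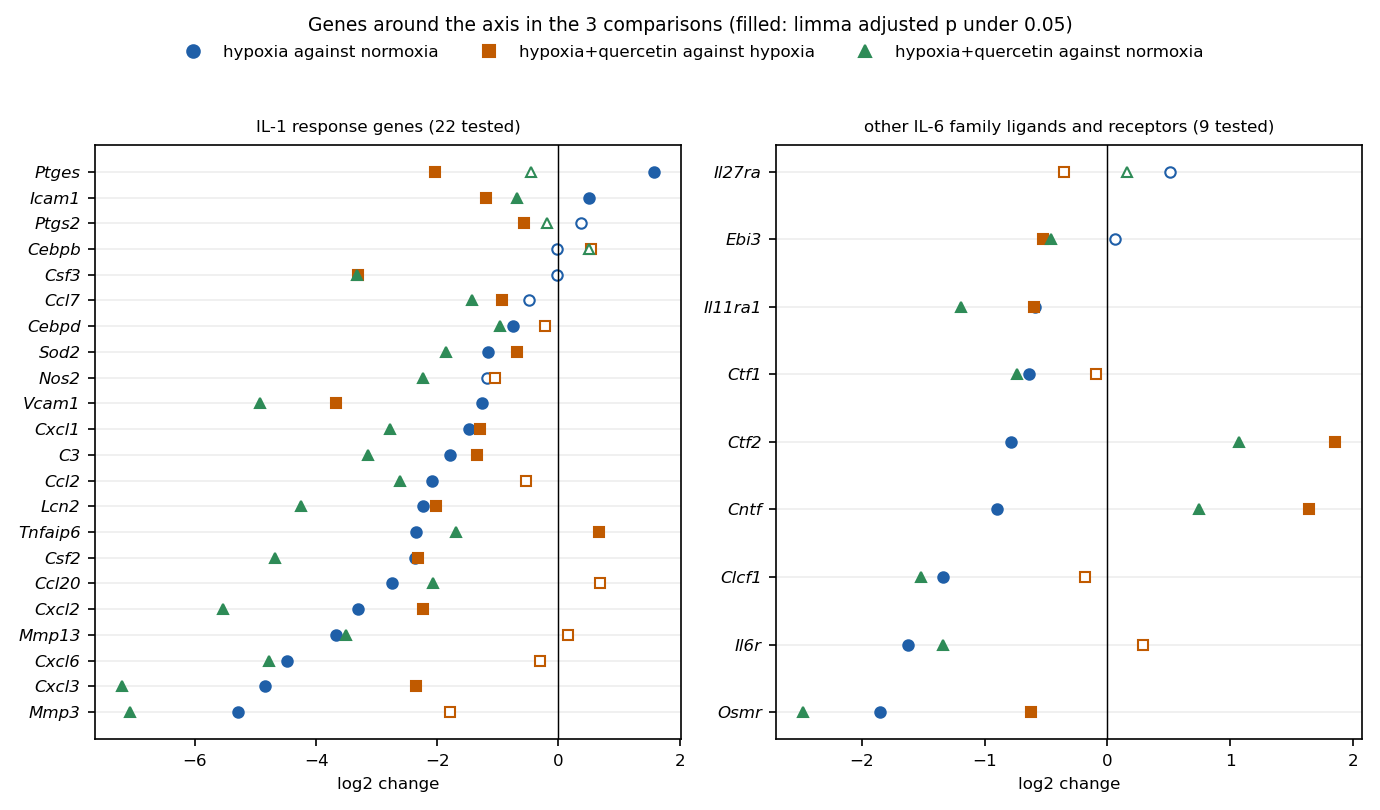
Log2 change of the 22 interleukin-1 response genes (left) and of 9 tested interleukin-6 family ligands and receptors outside the members (right) in the 3 comparisons, sorted by the change in hypoxia; filled symbols passed limma's adjusted p under 0.05. On the left 19 genes lie below 0 with a filled symbol for quercetin against normoxia, and on the right 7 genes lie below 0 with a filled symbol for hypoxia against normoxia.

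Il6 fell in hypoxia and lay between the other groups with quercetin. Its probe, read from 10 spots an array, had 21.7, 60.5 and 22.4 units with quercetin, 12.5, 12.7 and 12.6 in hypoxia and 82.4, 106 and 46.7 in normoxia. The hypoxia arrays were nearly equal and below all others, quercetin array 2 stood apart from the other quercetin arrays, and it lay above normoxia array 3. Il6 was 5.89-fold lower in hypoxia than in normoxia (-2.56 ± 0.42, adjusted p = 0.000943), and the difference was -1.89 when slide entered as a block (adjusted p = 0.0243).

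With quercetin Il6 was 2.45-fold higher than in hypoxia (1.29 ± 0.42, adjusted p = 0.0278). This call was lost, at adjusted p = 0.0569 to 0.0664, when any 1 hypoxia array or quercetin array 2 was left out; without quercetin array 2 the estimate was 0.81. With no filter on dim probes the adjusted p was 0.0643. Quercetin against normoxia gave -1.26 ± 0.42 (adjusted p = 0.0389) with overlapping groups, and this call was lost when any 1 array but quercetin array 2 or normoxia array 3 was left out (adjusted p = 0.0534 to 0.126). With scan day as a block, which sets the quercetin arrays against normoxia array 3, it was -0.60 (adjusted p = 0.445).

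Il6st, which encodes gp130, was the member whose probes disagreed most. Its 3 probes lie on 1 transcript at bases 2042, 4957 and 5084, on rn4 at chr2:43833273-43833332, chr2:43836188-43836247 and chr2:43836315-43836374, and the distances between their starts, 2915 and 127 bases, are the same on the transcript and on the genome. The brightest, at base 4957, had 3309, 3311 and 3295 units with quercetin, 4761, 4818 and 4757 in hypoxia and 5274, 7504 and 4815 in normoxia. The quercetin arrays lay below all others, and the hypoxia arrays lay within the range of the normoxia arrays or below it. This probe fell with quercetin against hypoxia (-0.53 ± 0.15, adjusted p = 0.016) and gave -0.27 ± 0.15 in hypoxia against normoxia (adjusted p = 0.152). With quantile normalization the calls changed places: the fall with quercetin was -0.20 (adjusted p = 0.291) and hypoxia against normoxia -0.61 (adjusted p = 0.00849).

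The probe at base 2042, whose sequence is shown above, had 284, 259.9 and 282 units with quercetin, 247, 230.2 and 248 in hypoxia and 439, 567 and 368 in normoxia. It fell in hypoxia (-0.90 ± 0.15, adjusted p = 0.000912) and gave 0.19 ± 0.15 with quercetin against hypoxia (adjusted p = 0.307). The probe at base 5084 had 61.4, 60.0 and 61.6 units with quercetin, 26.6, 27.5 and 30.2 in hypoxia and 90.8, 113 and 75.3 in normoxia. It fell 3.27-fold in hypoxia (-1.71 ± 0.14, adjusted p = 2.28e-05) and rose 2.17-fold with quercetin against hypoxia (1.12 ± 0.14, adjusted p = 0.000261), opposite to the brightest probe.

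Tested within arrays, the brightest Il6st probe changed more upward than the probe at base 5084 in hypoxia, by 1.44 ± 0.071 (adjusted p = 6.53e-06), and more downward with quercetin against hypoxia, at -1.65 ± 0.071 (adjusted p = 7.81e-06). Against the probe at base 2042 the differences were 0.63 ± 0.066 and -0.72 ± 0.066 (adjusted p = 0.000247 and 0.000159). With quercetin against normoxia the 3 probes gave -0.80 ± 0.15, -0.71 ± 0.15 and -0.59 ± 0.14, all lower with adjusted p = 0.00332, 0.00502 and 0.00991, and neither difference between probes passed. Averaged over the 3 probes, Il6st was 0.26 with quercetin against hypoxia (adjusted p = 0.158) and -0.96 in hypoxia against normoxia (adjusted p = 0.000587). The direction of Il6st with quercetin against hypoxia thus depends on the probe, whereas its lower level with quercetin than in normoxia was given by all 3. That last call of the brightest probe was lost with scan day as a block (-0.54, adjusted p = 0.0653).

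**Figure D5:**
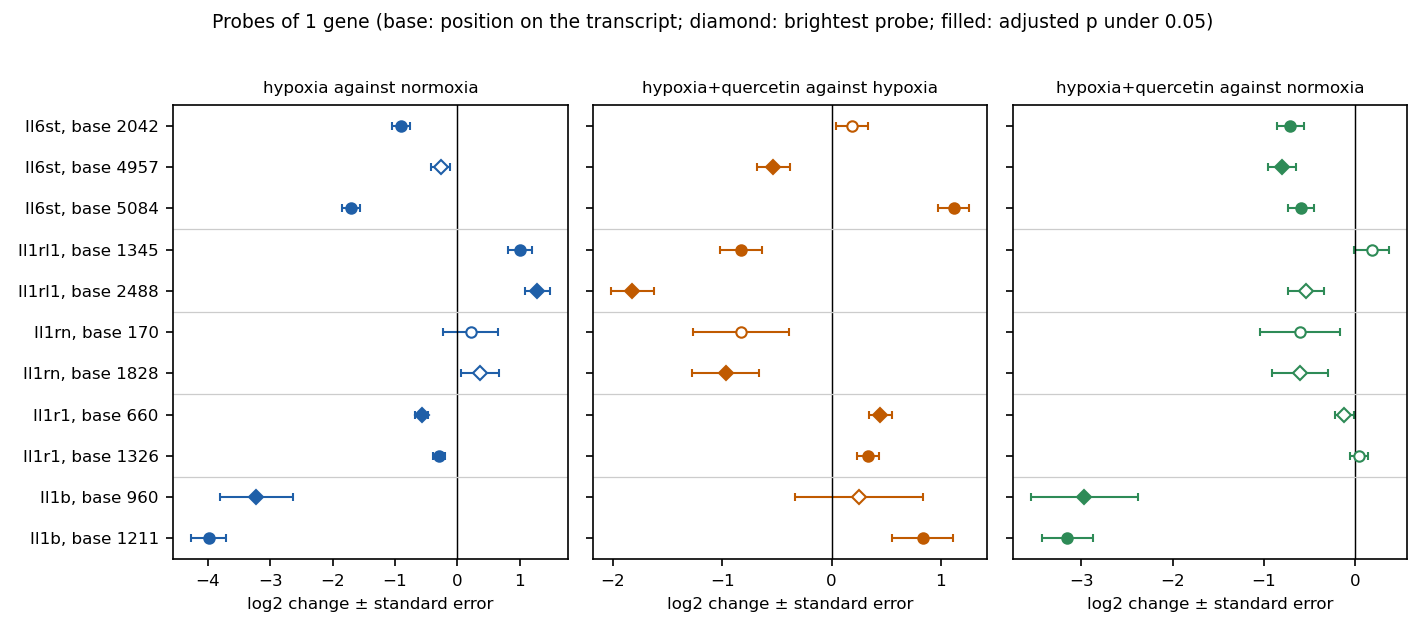
Log2 change ± standard error of each kept probe of the 5 members measured by more than 1, by position on the transcript, in the 3 comparisons (3 arrays a group); diamonds mark the brightest probe and filled symbols passed limma's adjusted p under 0.05. The Il6st probes at bases 4957 and 5084 lie on opposite sides of 0 with quercetin against hypoxia, at -0.53 and 1.12.

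Lif, leukaemia inhibitory factor, passed the test in none of the 3 comparisons. It had 27.3, 28.9 and 28.5 units with quercetin, 28.2, 24.6 and 25.3 in hypoxia and 25.3, 23.5 and 29.2 in normoxia, with all groups overlapping. The changes were 0.0076 ± 0.10 in hypoxia, 0.12 ± 0.10 with quercetin against hypoxia and 0.13 ± 0.10 with quercetin against normoxia (adjusted p = 0.955, 0.356 and 0.363). Under spike-in scaling, which moves the median of all genes by a similar amount, Lif was -0.50 in hypoxia (adjusted p = 0.00438).

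Of the receptor chains that pair with gp130, Il6r and Osmr fell in hypoxia. Il6r, the chain that binds interleukin-6 itself, had 10.2, 16.8 and 14.0 units with quercetin, 11.8, 10.6 and 10.5 in hypoxia and 39.0, 32.9 and 30.2 in normoxia. Osmr, the oncostatin M receptor chain, had 8.48, 5.25 and 6.17 units with quercetin, 9.63, 11.2 and 9.32 in hypoxia and 44.0, 38.2 and 28.2 in normoxia. For both genes every normoxia array lay above every hypoxic one. Il6r fell in hypoxia, at -1.63 ± 0.18 (adjusted p = 0.000109), and was 0.29 ± 0.18 with quercetin against hypoxia (adjusted p = 0.204). Osmr fell in hypoxia, at -1.85 ± 0.21, and again with quercetin against hypoxia, at -0.63 ± 0.21 (adjusted p = 0.000128 and 0.0328). Lifr, the chain that LIF needs beside gp130, was above background on 2 quercetin, 1 hypoxia and 2 normoxia arrays and was not tested; Osm was above background on no array and Il11 on 2 normoxia arrays.

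Of 16 other interleukin-6 family ligands and receptors reported here, 9 were tested: 7 fell and 2 did not pass in hypoxia (median -0.78), 2 rose and 3 fell with quercetin against hypoxia (median -0.18), and 2 were higher and 6 lower with quercetin against normoxia (median -0.73). Over all genes 28.9% fell in hypoxia and 31.5% with quercetin against hypoxia. The 3 that fell with quercetin against hypoxia became 1 without hypoxia array 1 or 2 or quercetin array 3, and the 2 higher with quercetin than in normoxia became 1 when any 1 array but normoxia array 3 or quercetin array 1 was left out. Clcf1, a cardiotrophin-like cytokine, averaged 71.7 ± 7.96 units with quercetin, 81.0 ± 2.38 in hypoxia and 206 ± 33.5 in normoxia and fell in hypoxia against normoxia, at -1.34 ± 0.13 (adjusted p = 6.03e-05). Cntf, ciliary neurotrophic factor, averaged 144 ± 37.0 units with quercetin, 45.4 ± 1.28 in hypoxia and 87.7 ± 27.6 in normoxia and rose with quercetin against hypoxia by 1.64 ± 0.26 (adjusted p = 0.000842). Ctf2, a cardiotrophin, rose by 1.85 ± 0.28 in the same comparison (adjusted p = 0.000631), but was above background on 1 of 3 hypoxia arrays. Il11ra1, the interleukin-11 receptor chain, fell in both comparisons, at -0.59 ± 0.078 in hypoxia and -0.60 ± 0.078 with quercetin against hypoxia (adjusted p = 0.000269 and 0.000303).

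Among 17 tested genes of gp130 signalling, 6 rose and 5 fell in hypoxia, 4 rose and 6 fell with quercetin against hypoxia, and 3 were higher and 6 lower with quercetin against normoxia, with medians of 0.10, -0.25 and -0.19. The genes called, 11 of 17 in hypoxia and 10 of 17 with quercetin against hypoxia, compare with 64.2% and 58.4% of all genes. Under spike-in scaling none of them rose and 10 fell in hypoxia, and without normoxia array 3 the 3 higher with quercetin than in normoxia became 5. Adam10 and Adam17, the proteases that shed the interleukin-6 receptor from the cell surface, both fell in hypoxia, at -2.01 ± 0.18 and -0.98 ± 0.10, and both rose with quercetin against hypoxia, by 2.26 ± 0.18 and 0.42 ± 0.10 (adjusted p = 3.07e-05, 7.45e-05, 2.27e-05 and 0.0079). Adam10 averaged 20.1 ± 0.911 units with quercetin, 4.27 ± 1.06 in hypoxia and 16.9 ± 1.07 in normoxia, and was above background on 2 of 3 hypoxia arrays. Stat3, the main transcription factor below gp130, was 0.10 ± 0.082 in hypoxia (adjusted p = 0.299) and fell with quercetin against hypoxia, at -0.52 ± 0.082 (adjusted p = 0.0009). Jak2, a kinase bound to gp130, fell with quercetin too, at -1.06 ± 0.10 (adjusted p = 6.91e-05).

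Of 15 genes known to respond to STAT3, 13 were tested: 7 rose and 4 fell in hypoxia, 3 rose and 5 fell with quercetin against hypoxia, and 2 were higher and 7 lower with quercetin against normoxia. The medians were 0.56, -0.79 (-0.47 with Lbp at its bound) and -0.36; under spike-in scaling none rose and 4 fell in hypoxia. Over all genes 35.3% rose and 28.9% fell in hypoxia. The 4 that fell there became 2 without normoxia array 1 or 2 or any 1 hypoxia array. Socs3, the feedback inhibitor of gp130, averaged 14.2 ± 1.38 units with quercetin, 31.4 ± 2.24 in hypoxia and 21.5 ± 3.45 in normoxia, a rise of 0.56 ± 0.14 in hypoxia and a change of -1.14 ± 0.14 with quercetin against hypoxia (adjusted p = 0.0073 and 0.000201). Bcl3, an IkB family member induced by STAT3 and by NF-kB, averaged 312 ± 25.0 units with quercetin, 3319 ± 60.3 in hypoxia and 1988 ± 333 in normoxia, a change of -3.41 ± 0.13 with quercetin against hypoxia (adjusted p = 1.79e-06). Myc went the other way, at 941 ± 215 units with quercetin, 358 ± 46.9 in hypoxia and 1329 ± 125 in normoxia (-1.89 ± 0.17 in hypoxia and 1.38 ± 0.17 with quercetin against hypoxia, adjusted p = 3.76e-05 and 0.000253).

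The genes most like each member other than Lif were found from the root mean square difference of gene-centred log2 profiles over the 9 arrays, among 11790 other tested genes with a symbol; small values mean alike profiles, and the measure largely reflects differences between the 3 groups. For Il1rap these were Pgf (0.15), Prkab2 (0.185), H19 (0.205) and for Il1rl1 Tagln (0.153), Acy3 (0.159), Pear1 (0.165). Pgf encodes placental growth factor, and Tagln is 1 of the smooth muscle markers, which averaged 9497 ± 723 units with quercetin, 30432 ± 993 in hypoxia and 15191 ± 3460.0 in normoxia. The Il1rn profile was most like that of Actg2 (0.102), Actbl2 (0.15), Pdlim2 (0.164), where Actg2 is again a smooth muscle marker and was, like Il1rn, far higher on normoxia array 2 than on the others (8559 units, against 3203 and 3000.0 on normoxia arrays 1 and 3). Whether the muscle phenotype of the cells has a part in the levels of Il1rl1 and Il1rn was not tested.

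For Il6 the most alike genes were Bmp2 (0.31), Pcdh19 (0.357), Phlda1 (0.363), led by Bmp2, a bone morphogenetic protein. For Il1a they were Gsta1 (0.323), Gsta3 (0.33), Sod2 (0.334); Sod2, mitochondrial superoxide dismutase, is also on the interleukin-1 response list. For Il1b, which lay near background, the distances were larger, with Irgm (0.51), Camp (0.512), Hpgd (0.595). The remaining members gave Pml (0.0765), Ino80 (0.0913), Cuedc1 (0.0917) for Il1r1, Mbnl3 (0.134), Ammecr1 (0.171), Btd (0.202) for Il33 and Cyb5b (0.0651), Lgals1 (0.0886), S100a16 (0.0923) for the brightest probe of Il6st.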

How the data were processed

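Agilent Feature Extraction 10.7.3.1 quantified the 1-channel scans, per the file headers; the deposited scanner files hold spot intensity with background already subtracted. The authors' deposited value table holds log2 values; no source used here says how it was made, and it served as an alternative. The labels' protocols name a kit for labelling microRNA, but a gene expression protocol stands in the scanner output, so the labelling chemistry is uncertain.

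Control spots (1639) were left out and 71 to 148 outlier spots an array set missing; none was saturated. Log2 intensity was averaged over spots of a probe and the 75th percentile of the array subtracted. Over probes this percentile was 423 to 471 with quercetin, 409 to 432 in hypoxia and 585 to 598 in normoxia. The filter left 26655 of 41012 probes, those above background throughout at least 1 group, and each gene was read from its brightest kept probe. Of 41012 probes, 18028 were named by accession, 3168 by symbol and 400 by synonym through RefSeq's GRCr8 gene table; the others kept the name in the file.

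A single limma model (version 3.58.1, in R 4.3.3; lmFit, eBayes) of group means over all 9 arrays was fitted, which was tested on simulated data first. It had 6 residual and 2.30 prior degrees of freedom, and 3 arrays a group limit its precision. Further probes were fitted over all kept probes, and differences between probes of a gene over 4541 pairs.

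The members, gene lists, motifs and tests were chosen with earlier results of these data known. Genes named from a list are, at most, the 4 with the smallest adjusted p in a comparison and direct partners of the members (Il1r2, Il18, Il18r1, Il6r, Lifr, Osmr, Il11, Osm, Sigirr, Myd88, Stat3, Socs3, Nfkbia), with the 3 genes most alike in profile to each member. Irak3, Lbp, Nlrp3 and the markers of other cell types were named after their values were seen. No probe bore the name Il18r1. A further gene of the interleukin-6 family list is not reported here, and the list's counts leave it out. Alternatives covered the scaling, background correction, deposited values, filter, probe choice, slide, scan day, samples in the fit, variance model, replicate number and each array left out.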

Additional observations from a re-analysis of the deposited data

How the results depend on the processing

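Of 691 values of the 10 genes under 24 alternatives, 610 kept their direction and their side of the threshold, 45 lost the call, 17 gained it and 19 changed sign, all of them small changes that had not passed except Il6st. The changes of Il1rap and Il1rl1 in hypoxia against normoxia and with quercetin against hypoxia kept both under every alternative run. So did the falls of Il1r1 and Il6 in hypoxia against normoxia. Under normexp background correction 4 members passed in hypoxia against normoxia and 1 with quercetin against normoxia, and over all genes 6704, 6161 and 3167 passed in hypoxia against normoxia, quercetin against hypoxia and quercetin against normoxia. With signal required on all 9 arrays 4 of the 7 members left passed in hypoxia, since Il1a, Il1b and Il33 were no longer tested. Blocking on scan day, which was chosen after seeing the data, as was leaving out the 2 arrays with the fewest probes above background, 2 members and 5812 genes passed with quercetin against normoxia. Leaving out 1 array at a time gave 7 to 8, 4 to 6 and 5 to 7 members in the 3 comparisons.

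Lif in hypoxia against normoxia turned to -0.042 with median scaling, -0.50 with spike-in scaling, -0.058 with normexp, -0.16 with slide or scan day as a block, -0.0044 with slide as a random block, and -0.0087, -0.062 and -0.051 without normoxia array 1, normoxia array 2 and hypoxia array 1 (range over single arrays left out -0.062 to 0.094); with quercetin against normoxia it turned to -0.28 with spike-in scaling and -0.047 with scan day as a block. Il1rn in hypoxia turned to -0.14 with spike-in scaling. With quercetin against hypoxia, Il1b, above background on no hypoxia array, turned to -0.39 with quantile normalization and with the authors' deposited values and to -0.26 without hypoxia array 2 (range -0.26 to 0.98), Il1a to 0.37 and Il33 to 0.26 with normexp, Il33 to 0.029 without the 2 arrays with the fewest probes above background, and Il6st to 0.26 as the mean of its probes. The causes were not tested.

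Samples with the same replicate number did not deviate together (correlations of -0.27 to 0.02), so no pairing by number was seen. With 3 arrays a group, this check cannot exclude that samples of the same number shared a culture or batch. A fit with the replicate block called 7, 6 and 6 members and 13188, 11963 and 8505 genes, and changed no call of a member. Signal near background limits Il1a, Il1b and Il33. Among genes named from the lists it also limits Vcam1, Mmp9, Casp1 and Sigirr, above background on 2 of 3 quercetin arrays. The same holds in hypoxia for Adam10, Il1rl2 and Kit, on 2 of 3 arrays, and for Ctf2, on 1.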
